A study of Mus musculus with 18 samples.

Results

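The primitive endoderm genes described here were 10 genes chosen by symbol from the 53672 genes listed in each library. They comprised the transcription factors Gata4, Gata6, Sox17, Sox7, Foxa2 and Hnf4a, the receptor Pdgfra, the endocytic adaptor Dab2, and Cubn and Amn, which encode the subunits of an endocytic receptor. All 10 had a row in the count tables. Of these, 9 passed the filter on low counts that left 18791 genes for testing, and Foxa2 did not.

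The primitive endoderm is the extraembryonic lineage that separates from the epiblast in the inner cell mass of the blastocyst and gives rise to visceral and parietal endoderm. FGF4 from epiblast-fated cells acts through FGF receptors and ERK to favour Gata6 over Nanog, and Pdgfra, Sox17, Gata4 and Sox7 come on as the fate is taken. ESC cultures are derived from the epiblast, but a small number of cells in them can carry primitive endoderm transcripts.

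RNA had been sequenced from E14TG2a mouse ESCs in which the endogenous Hdac1 and Hdac2 alleles were floxed (Hdac1/2 lox/lox), so that 4-hydroxytamoxifen (OHT) removes both. Each of 3 lines also carried a stable Flag-tagged HDAC1 rescue transgene, introduced with piggyBac, that was wild type (the WT line) or had a substitution on the HDAC1 surface (the E63R line and the Y48E line). Every line was sequenced untreated and after OHT, with 3 libraries in each of 6 groups, 18 libraries in all, in medium with serum and leukemia inhibitory factor. The labels give 1 µM OHT and 5 days for all treated groups, and 5 days without OHT for the untreated ones, while the study's methods describe a shorter exposure to OHT followed by culture without it, so the length of exposure is uncertain. All 6 groups therefore shared the floxed background and a rescue transgene, and no group without a transgene was analysed here. Each rescue construct was represented by a single line, so a substitution and the line that carried it cannot be told apart. The study calls the libraries of a group biological replicates, and nothing in the labels states what was separate between them, so p-values measure the spread between these libraries.

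Each library held between 9019615 and 11454638 counts on genes, and a floor of 3 counts, the upper limit allowed by a count of 0, lay between 0.248 and 0.343 CPM. CPM are counts scaled to a common library size with TMM factors. Floors and exact counting intervals cover counting error only, while the 95% intervals of fitted log2 values include the spread between libraries. One library stood apart. Untreated E63R replicate 3 had a chi-square per degree of freedom of 60.4 and 67.1 against the other libraries of its group, where these differed from each other by 5.35 and the pairs of the other groups by between 3.38 and 7.42. It had the lowest Gata4, Gata6, Dab2, Hnf4a, Sox7 and Pdgfra of its group and the highest Sox17 and Amn. The E63R OHT responses and called differences that use it are therefore given with and without it for the tested primitive endoderm genes. Values of single genes from other lists are given with it only. The deleted genes did not settle the labels. Hdac2 had a mean of 195 CPM ± 22.9 (SD, n = 3) in untreated WT cells and 124 ± 10.3 after OHT, and in the mutant lines the group means lay between 144 and 177 CPM, with treated and untreated libraries overlapping. Hdac1, whose counts can include the rescue transcript, was 205 CPM ± 4.98 in untreated WT cells and 105 ± 8.82 and 101 ± 2.92 in untreated E63R and Y48E cells. The study states that OHT leads to loss of the endogenous proteins, which RNA counts do not measure. No group had a full set of differentiated endoderm markers. Of 17 visceral endoderm genes, Ttr, Apoc2 and Cer1 were at or under the floor in all 18 libraries, and Afp was at or under it in all 3 libraries of 4 of the groups and at 2.46 CPM ± 2.13 in OHT-treated Y48E cells. In bulk RNA, fewer cells of a type and less RNA per cell cannot be told apart.

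Promoters of 6 of the 10 genes were matched by symbol in RefSeq (GRCm38.p6), for Pdgfra, Dab2, Foxa2, Hnf4a, Cubn and Amn and not for Gata4, Gata6, Sox17 and Sox7. The 250 bases before the annotated start are shown for the genes whose expression passed the test after OHT, which were Dab2 with 2 starts, Amn, and the upstream start of Hnf4a. Capitals mark matches, on either strand, to the letters GATAA (a core for GATA factors), or ACAAT (SOX factors), or TGTTTAC (FOXA factors), or AAAGTCC (HNF4 factors), or TATAAA (the TATA-binding protein). No matches overlapped. All 4 lie on the plus strand, at chr15:6299539-6299788 (first Dab2 start), chr15:6386498-6386747 (second Dab2 start, inside the annotated gene), chr12:111270846-111271095 (Amn) and chr2:163506607-163506856 (Hnf4a).
Dab2 first start: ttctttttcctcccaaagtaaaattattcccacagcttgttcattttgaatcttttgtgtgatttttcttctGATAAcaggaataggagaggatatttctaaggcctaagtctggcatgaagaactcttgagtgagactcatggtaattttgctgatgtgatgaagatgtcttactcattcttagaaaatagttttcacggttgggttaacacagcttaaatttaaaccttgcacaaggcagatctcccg
Dab2 second start: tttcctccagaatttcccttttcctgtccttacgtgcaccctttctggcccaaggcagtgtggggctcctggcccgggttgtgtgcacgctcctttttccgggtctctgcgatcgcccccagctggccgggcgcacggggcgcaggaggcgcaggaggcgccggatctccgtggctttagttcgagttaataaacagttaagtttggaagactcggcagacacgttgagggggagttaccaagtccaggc
Amn: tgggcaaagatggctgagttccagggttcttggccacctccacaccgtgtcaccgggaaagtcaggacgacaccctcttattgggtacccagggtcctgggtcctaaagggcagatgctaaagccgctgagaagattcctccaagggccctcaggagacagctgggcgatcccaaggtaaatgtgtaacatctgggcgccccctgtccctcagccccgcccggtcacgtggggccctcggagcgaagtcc
Hnf4a upstream start: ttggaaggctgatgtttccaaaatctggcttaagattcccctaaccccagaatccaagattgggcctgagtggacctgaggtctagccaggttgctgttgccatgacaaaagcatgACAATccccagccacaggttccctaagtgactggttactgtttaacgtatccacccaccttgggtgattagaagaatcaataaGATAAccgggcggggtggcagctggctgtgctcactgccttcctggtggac
The first Dab2 window held GATAA 178 bases before the start, and a further match lay in the 50 bases after it. The Hnf4a window held ACAAT 134 bases and GATAA 51 bases before the start. The second Dab2 window and the Amn window held none of these letter strings. Neither did the window of a second, downstream Hnf4a start, at chr2:163546905-163547154, which is not shown. Over 32851 promoters of 300 bases (250 before and 50 after the start), GATAA was found in 25.4%, ACAAT in 31.0%, TGTTTAC in 3.65%, AAAGTCC in 4.21% and TATAAA in 13.6%. Among the 10 promoter entries of these genes, 3 held GATAA, 1 held ACAAT, 1 held TATAAA, and none held TGTTTAC or AAAGTCC. In base composition the starts of Dab2 differed, with 37.7% G and C at the first and 59.3% at the second, where Amn had 62.3% and the median promoter 52.7%. The ratio of observed to expected CpG was 0.188 and 0.720 at the Dab2 starts, 0.515 at Amn and 0.183 at Hnf4a, against a median of 0.384. The counts are per gene and do not separate the starts.

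**Figure D1:**
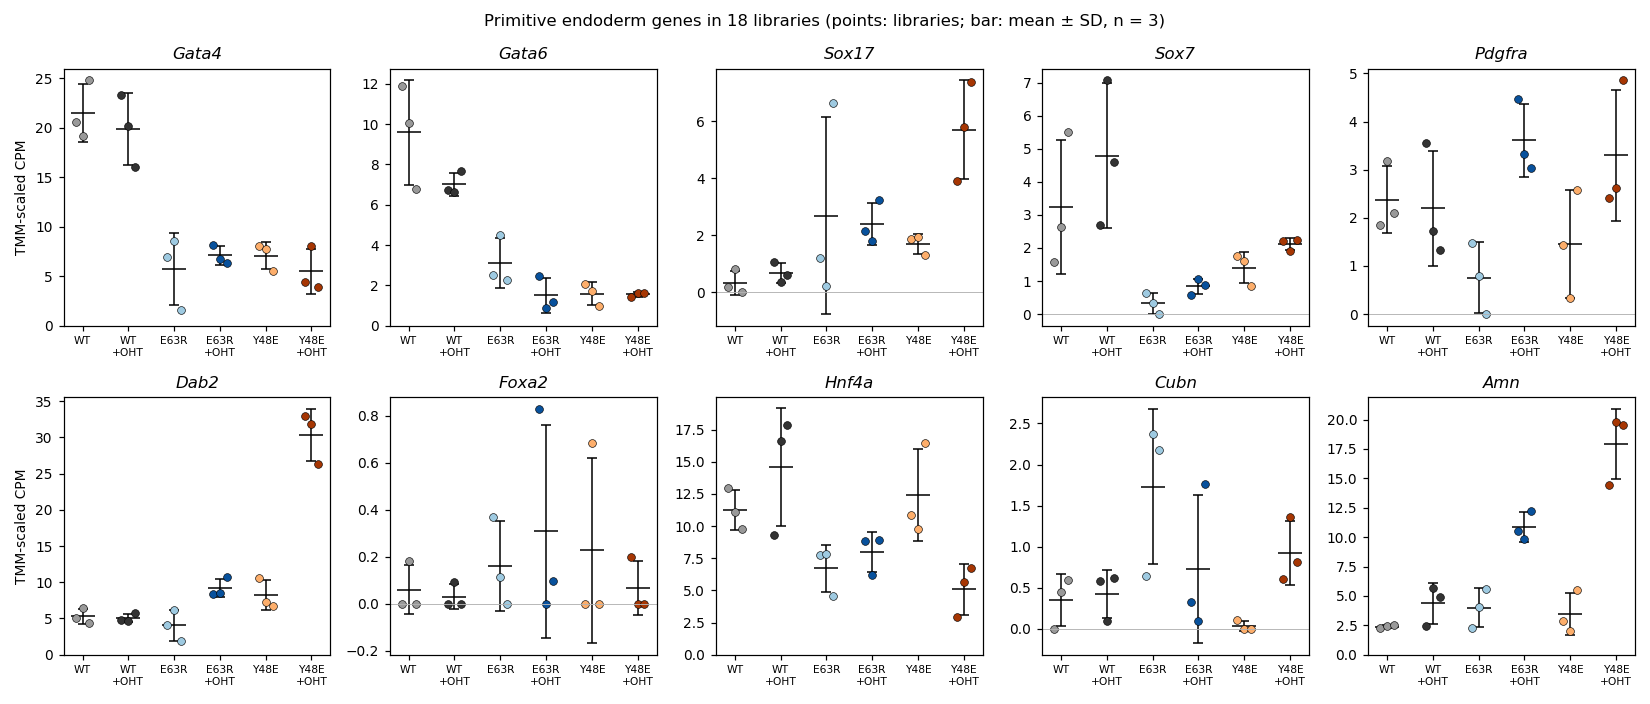
Level of each primitive endoderm gene (vertical axis, TMM-scaled CPM, on a scale of its own for each gene) in the 6 groups (horizontal axis, +OHT marking treated libraries). Points are libraries and bars are the mean ± SD of 3 libraries. Gata4 and Gata6 lay higher in both WT groups than in the 4 mutant groups, and Dab2 and Amn were highest in OHT-treated Y48E cells.

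Compared per kilobase of exon, which allows genes to be set against each other, Gata4 was the most abundant of the 10 genes in untreated WT cells. Gata4, a zinc finger factor of the primitive endoderm, had a level of 5.51 ± 0.756 CPM per kb (SD, n = 3). Hnf4a, a nuclear receptor of the visceral endoderm, followed with 2.33 ± 0.326 and Gata6 with 1.47 ± 0.397, and the libraries of these 3 genes did not overlap. Next came Amn (1.30 ± 0.0769), which overlapped Gata6, then Sox7 (0.981 ± 0.615) and Dab2 (0.720 ± 0.142), each overlapping its neighbour. Pdgfra was at 0.237 ± 0.0697, and Sox17, Foxa2 and Cubn were below 0.1. In OHT-treated Y48E cells the order differed. Amn was first with 9.72 ± 1.63 CPM per kb and Dab2 second with 4.13 ± 0.486, without overlap between them or with the next gene, Gata4 (1.40 ± 0.577), which overlapped Sox17 (1.19 ± 0.363).

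Foxa2, a forkhead factor of visceral and definitive endoderm, was over 3 counts in 3 of the 18 libraries and at 0 in 10, with a highest count of 10. No direction can be given for it at this depth. Cubn, the gene of cubilin, was also low, with at most 21 counts in a library.

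In the WT line, treatment with OHT changed none of the 9 tested genes at the limits used (edgeR quasi-likelihood, Benjamini-Hochberg adjusted p under 0.01 and over 2-fold). Over all tested genes 0.0532% were called in that comparison, 1 of the 9 had an unadjusted p under 0.05, and DESeq2 called none. The lowest p was that of Amn, at 2.23, 2.45 and 2.50 CPM untreated and 2.41, 5.71 and 4.95 after OHT. Its log2 fold change was 0.87, with a standard error (SE) of 0.37 (adjusted p = 0.434, edgeR), and the groups overlapped. No gene of the 9 had treated libraries wholly above or below the untreated ones, a separation found for 19.2% of tested genes.

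The 2 genes called higher after OHT in both mutant lines were Dab2 and Amn, while Cubn was called in neither. Dab2 encodes a clathrin adaptor and Amn the amnionless subunit that carries cubilin to the membrane, both of endocytosis in the visceral endoderm. In the E63R line Dab2 and Amn were 2 of 9 tested genes called, where 5.91% of tested genes were called and 4.74% were called higher. In the Y48E line Dab2 and Amn rose and Hnf4a fell, 3 of 9 where 16.6% were called. The median log2 fold change of the 9 genes was 0.29 in the WT line, 0.31 in the E63R line and 1.17 in the Y48E line, beside medians over all tested genes of 0, 0.03 and 0.05. The E63R median was 0.71 without untreated E63R replicate 3.

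Dab2 (chromosome 15, 6299788 to 6440712, plus strand, mm10, ENSMUSG00000022150.16) was at 5.02, 6.43 and 4.40 CPM in untreated WT cells and at 4.82, 4.72 and 5.74 after OHT. Untreated E63R libraries had 4.07, 6.21 and 1.94 CPM and OHT-treated ones 8.44, 8.48 and 10.7. In the Y48E line the level was 10.6, 7.29 and 6.78 CPM without OHT and 32.9, 31.8 and 26.3 with it. All treated libraries of each mutant line thus lay above its untreated ones, and those of the WT line overlapped. The log2 fold change was -0.06 in the WT line (SE 0.29, adjusted p = 0.984, edgeR), 1.17 in the E63R line (0.29, adjusted p = 0.00534, edgeR) and 1.88 in the Y48E line (0.27, adjusted p = 8.58e-06, edgeR). The response of the Y48E line exceeded that of the WT line by 1.94 (SE 0.40, adjusted p = 0.00113, edgeR), a difference called for 8.62% of genes. The response of the E63R line exceeded that of the WT line by 1.23 (0.41, adjusted p = 0.0871, edgeR), which did not pass, and the response of the Y48E line exceeded that of the E63R line by 0.71 (95% interval -0.11 to 1.54). This last difference was 1.03 without untreated E63R replicate 3 (adjusted p = 0.0392, edgeR) and the difference of the E63R from the WT response 0.90 (adjusted p = 0.107, edgeR), and neither passed. Without untreated E63R replicate 3 the E63R fold change was 0.85 on the log2 scale (adjusted p = 0.0151, edgeR) and was no longer called. The E63R call was also lost without untreated replicate 1 and without any 1 of the OHT-treated replicates. About 2.87% of the exonic bases of Dab2 overlap an exon of Gm18888 on the other strand, and whether the counting used strand is not given in the sources used here.

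Amn (chromosome 12, 111271095 to 111276426, plus strand, ENSMUSG00000021278.7) was at 2.31, 4.07 and 5.60 CPM in untreated E63R cells and at 10.5, 9.81 and 12.2 after OHT. For the Y48E line the values were 2.86, 2.05 and 5.49 CPM without OHT and 14.5, 19.8 and 19.5 with it. Neither line's groups overlapped. The log2 fold changes were 1.45 in the E63R line (SE 0.35, adjusted p = 0.00402, edgeR) and 2.36 in the Y48E line (0.35, adjusted p = 1.33e-05, edgeR). Set against the WT line, the response differed by 0.59 in the E63R line (95% interval -0.48 to 1.65) and by 1.5 in the Y48E line (SE 0.51, adjusted p = 0.0398, edgeR), neither of which passed. The latter was 1.99 and passed without untreated Y48E replicate 3 (adjusted p = 0.00914, edgeR). Without untreated E63R replicate 3 the E63R value was 1.78 (adjusted p = 1.45e-04, edgeR). The E63R call for Amn was lost without untreated replicate 1 and without OHT-treated replicate 1 or 3. In a fit of only the 6 E63R libraries neither Dab2 (adjusted p = 0.0893, edgeR) nor Amn (adjusted p = 0.0304, edgeR) passed, and no gene of the 9 was called.

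Cubn (chromosome 2, 13276338 to 13491813, minus strand, ENSMUSG00000026726.10), which encodes the partner of amnionless, had 1, 0 and 0 counts in untreated Y48E libraries and 6, 15 and 9 after OHT. The treated libraries were above the untreated ones. The summed counts gave a ratio of 25.4 with an exact 95% counting interval of 4.22 to 1035, and the fitted difference did not pass (adjusted p = 0.0190, edgeR). In the E63R line the order was the opposite without passing, with 7, 21 and 19 counts untreated and 4, 1 and 18 after OHT, a log2 fold change of -1.24 that was -1.04 without untreated replicate 3.

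Hnf4a (chromosome 2, 163506808 to 163572910, plus strand, ENSMUSG00000017950.16) fell after OHT in the Y48E line. Untreated Y48E libraries had 10.9, 9.79 and 16.5 CPM and treated ones 2.91, 5.62 and 6.75, with no overlap. The log2 fold change was -1.27 (SE 0.31, adjusted p = 0.00233, edgeR). In the E63R line the level was 7.76, 7.79 and 4.57 CPM untreated and 8.86, 6.19 and 8.90 treated, and in the WT line 12.9, 11.1 and 9.80 untreated and 9.34, 16.6 and 17.8 treated. The log2 fold changes were 0.25 (0.31), or 0.04 without untreated E63R replicate 3, and 0.37 (0.30), and the groups overlapped. The Y48E response was lower than the WT response by 1.65 on the log2 scale (log2 difference -1.65, SE 0.43, adjusted p = 0.00798, edgeR). Against the E63R response the difference was -1.52 (0.44, adjusted p = 0.0475, edgeR), which did not pass the limit, and 1.31% of genes were called there. None of the 9 genes was called in that comparison, or in that of the E63R with the WT response, where 1.68% were, by edgeR or by DESeq2, and in each 2 of the 9 had an unadjusted p under 0.05. The Y48E call for Hnf4a was lost without untreated replicate 3 (log2 fold change -1.02, adjusted p = 0.0230, edgeR) and without OHT-treated replicate 1 (adjusted p = 0.0189, edgeR). The difference from the WT line lost its call in 9 of 12 fits that left out 1 library, with values between -1.90 and -1.38.

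**Figure D2:**
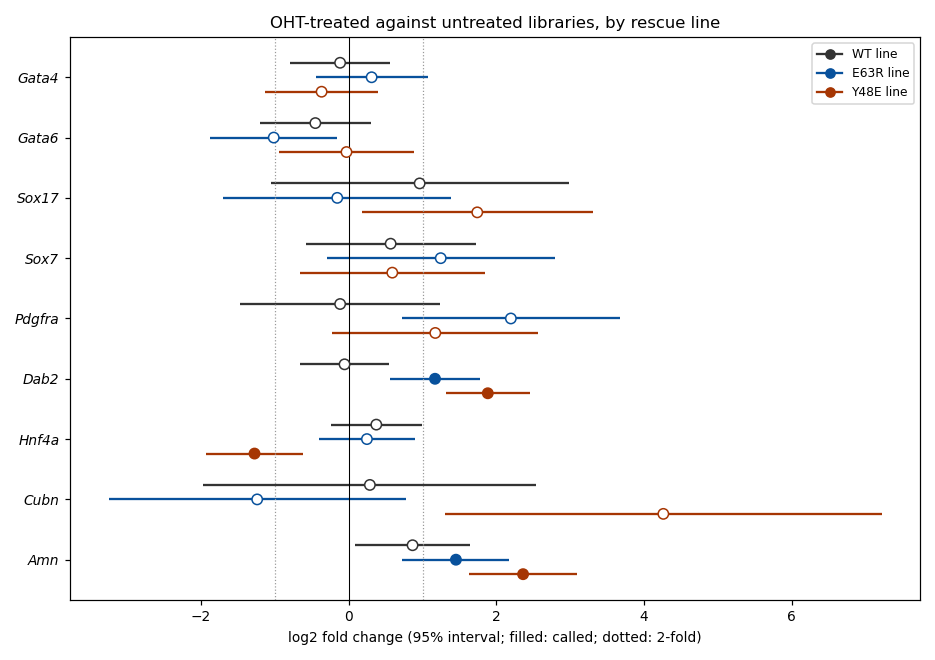
OHT response of the 9 tested primitive endoderm genes in each rescue line, as the log2 fold change of treated against untreated libraries (horizontal axis) with its 95% interval. Filled points were called (adjusted p under 0.01 and over 2-fold, dotted lines), which were Dab2 and Amn in the E63R and Y48E lines and Hnf4a in the Y48E line.

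Gata4 and Gata6, which drive primitive endoderm fate when expressed in ESCs, did not pass the test for OHT in any line. Gata4 had log2 fold changes of -0.12 (SE 0.33), 0.31 (0.37) and -0.37 (0.37) in the WT, E63R and Y48E lines. Gata6 had -0.45 (0.36), -1.01 (0.42, adjusted p = 0.0788, edgeR) and -0.03 (0.44). The 95% intervals for Gata4 were -0.79 to 0.56, -0.45 to 1.07 and -1.13 to 0.40. Without untreated E63R replicate 3 the Gata4 value of that line changed sign, to -0.12 (adjusted p = 0.796, edgeR), and that of Gata6 was -1.18 (adjusted p = 0.0420, edgeR).

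Pdgfra, the receptor for PDGF-A that marks early primitive endoderm, was at 1.48, 0.791 and 0 CPM in untreated E63R cells and at 4.47, 3.33 and 3.03 after OHT. The groups did not overlap, and the log2 fold change was 2.20 (SE 0.71, adjusted p = 0.0266, edgeR), which did not pass. It passed with no filter on low counts (adjusted p = 0.00308, edgeR) and with DESeq2 (adjusted p = 0.00938), and without untreated E63R replicate 3 it was 1.64 (adjusted p = 0.0460, edgeR). Pdgfra in the Y48E line was at 1.43, 0.342 and 2.58 CPM untreated and 2.41, 2.63 and 4.86 treated, with overlap. Pdgfra lies on chromosome 5 (75152292 to 75198215, plus strand, ENSMUSG00000029231.15), and 6.21% of its exonic bases overlap genes on the other strand.

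Sox17, an HMG box factor needed to keep the primitive endoderm epithelium, was at 1.87, 1.94 and 1.29 CPM in untreated Y48E cells and at 3.91, 5.80 and 7.38 after OHT. The libraries did not overlap. The log2 fold change was 1.74 (SE 0.75, adjusted p = 0.0659, edgeR), and it passed in a fit of only the 6 Y48E libraries (adjusted p = 8.97e-04, edgeR). In untreated E63R cells it was at 1.20, 0.226 and 6.63 CPM, a range wider than that of the treated libraries (2.15, 1.81 and 3.23). The E63R log2 fold change of -0.15 became 1.68 without untreated replicate 3 (adjusted p = 0.0864, edgeR). Exons of Gm37587 on the other strand overlap 16.8% of the exonic bases of Sox17 (chromosome 1, 4490931 to 4497354, minus strand, ENSMUSG00000025902.13), more than for any other of the 10 genes. Sox7 rose in no line by the test, with log2 fold changes of 0.57, 1.25 and 0.59 (SEs 0.55, 0.75 and 0.60), the second of which was 0.71 without untreated E63R replicate 3.

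By library ranges alone, 3 of 9 genes were wholly higher after OHT in the E63R line, where 21.2% of tested genes were, and 5 of 9 in the Y48E line, where 31.9% were. These were Pdgfra, Dab2 and Amn in the E63R line and Sox17, Sox7, Dab2, Cubn and Amn in the Y48E line.

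Gata4 and Gata6 were lower in both mutant lines than in the WT line. Both mutant lines were compared with the WT line, without OHT and after it, and the comparisons at one treatment share the WT libraries. In untreated cells Gata4, Gata6 and Sox7 were lower in the E63R line, 3 of 9 genes where 4.33% of tested genes were called lower, and Gata4 and Gata6 in the Y48E line, 2 of 9 where 2.95% were. No gene was called higher. Sox17 was at 0.186, 0.816 and 0 CPM in untreated WT cells, and its log2 difference of 2.92 in the E63R line (SE 0.90, adjusted p = 0.0180, edgeR) did not pass, rested on replicate 3 and was 1.09 without it (adjusted p = 0.365, edgeR). DESeq2 called it with all 3 libraries (adjusted p = 0.00497).

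Gata4 (chromosome 14, 63198922 to 63271692, minus strand, ENSMUSG00000021944.15) was at 20.6, 19.1 and 24.8 CPM in untreated WT cells, 6.93, 8.58 and 1.60 in untreated E63R cells and 8.03, 7.74 and 5.49 in untreated Y48E cells. After OHT it was at 23.3, 20.1 and 16.1 CPM in the WT line, 8.20, 6.76 and 6.36 in the E63R line and 4.42, 8.07 and 3.96 in the Y48E line. All 6 WT libraries were above all 12 mutant libraries. In untreated cells the log2 difference from the WT line was -1.90 (SE 0.36, adjusted p = 3.29e-04, edgeR) for E63R and -1.60 (0.35, adjusted p = 0.00196, edgeR) for Y48E. Without untreated E63R replicate 3 the first of these was -1.47 (adjusted p = 1.82e-05, edgeR). The Y48E call was lost without untreated WT replicate 3 (adjusted p = 0.0113, edgeR) or untreated Y48E replicate 3 (adjusted p = 0.0165, edgeR). After OHT the log2 differences were -1.48 (0.35, adjusted p = 0.00235, edgeR) and -1.85 (0.35, adjusted p = 2.00e-04, edgeR).

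Gata6 was at 11.9, 10.1 and 6.80 CPM in untreated WT cells, 2.50, 4.52 and 2.29 in untreated E63R cells and 2.09, 1.71 and 0.969 in untreated Y48E cells. After OHT it was at 6.74, 6.62 and 7.68 CPM in the WT line, 2.48, 0.858 and 1.17 in the E63R line and 1.41, 1.63 and 1.62 in the Y48E line, again with all WT libraries above all mutant ones. The log2 differences in untreated cells were -1.63 for E63R (SE 0.38, adjusted p = 0.00275, edgeR) and -2.59 for Y48E (0.41, adjusted p = 7.70e-05, edgeR). After OHT they were -2.19 (0.40, adjusted p = 2.45e-04, edgeR) and -2.17 (0.40, adjusted p = 1.54e-04, edgeR). The untreated E63R difference was -1.46 without replicate 3 (adjusted p = 0.00658, edgeR), and its call was lost without untreated WT replicate 1 or 2 or untreated E63R replicate 1.

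Sox7, which lies 672 kb from Gata4 on the same chromosome (63943673 to 63950732, plus strand, ENSMUSG00000063060.6), was at 1.58, 2.63 and 5.50 CPM in untreated WT cells and at 0.647, 0.339 and 0 in untreated E63R cells. The groups did not overlap, and 2 of the 3 E63R libraries were at or under the floor. The summed counts, 10 against 101, gave a ratio of 0.111 (exact 95% counting interval 0.0515 to 0.212), and the log2 difference was -3.19 (SE 0.70, adjusted p = 0.00146, edgeR). It was -2.65 (adjusted p = 0.00274, edgeR) without untreated E63R replicate 3, and the call was lost without untreated WT replicate 3. After OHT Sox7 was at 2.70, 7.08 and 4.59 CPM in the WT line and 0.579, 1.05 and 0.880 in the E63R line, a log2 difference of -2.51 (0.61, adjusted p = 0.00340, edgeR). In the Y48E line it was -1.19 (0.59) without OHT and -1.17 (0.57, adjusted p = 0.0998, edgeR) after it, and neither passed. None of the 3 untreated E63R calls remained in a fit of only the 6 libraries compared.

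After OHT, 4 of 9 genes differed between the E63R and WT lines, where 9.36% of tested genes were called, and 6 of 9 between the Y48E and WT lines, where 18.2% were. These comparisons were added after the data were seen. Beside Gata4, Gata6 and Sox7, Amn was higher in the E63R line by 1.31 on the log2 scale (SE 0.34, adjusted p = 0.00563, edgeR). In the Y48E line Gata4, Gata6 and Hnf4a were lower, and Sox17, Dab2 and Amn were higher. Sox17 differed by 3.05 (0.81, adjusted p = 0.00416, edgeR) from WT libraries at 1.06, 0.363 and 0.618 CPM, Dab2 by 2.57 (0.28, adjusted p = 1.51e-07, edgeR), Amn by 2.03 (0.34, adjusted p = 4.83e-05, edgeR) and Hnf4a by -1.51 (0.31, adjusted p = 4.28e-04, edgeR). The call for Sox17 was lost without WT OHT replicate 2 or 3 and without Y48E OHT replicate 2 or 3, with adjusted p up to 0.0247 (edgeR). In the E63R comparison the call for Amn was lost in 5 of 6 fits that left out 1 library, that for Sox7 in 4 and that for Gata4 in 3. The E63R count fell to 2 without WT OHT replicate 1 or E63R OHT replicate 1 and to 1 without E63R OHT replicate 2 or 3. Of the 6 genes called in OHT-treated Y48E cells, 3 were thus lower than in the WT line and 3 higher, and the other 3 tested genes did not pass.

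**Figure D3:**
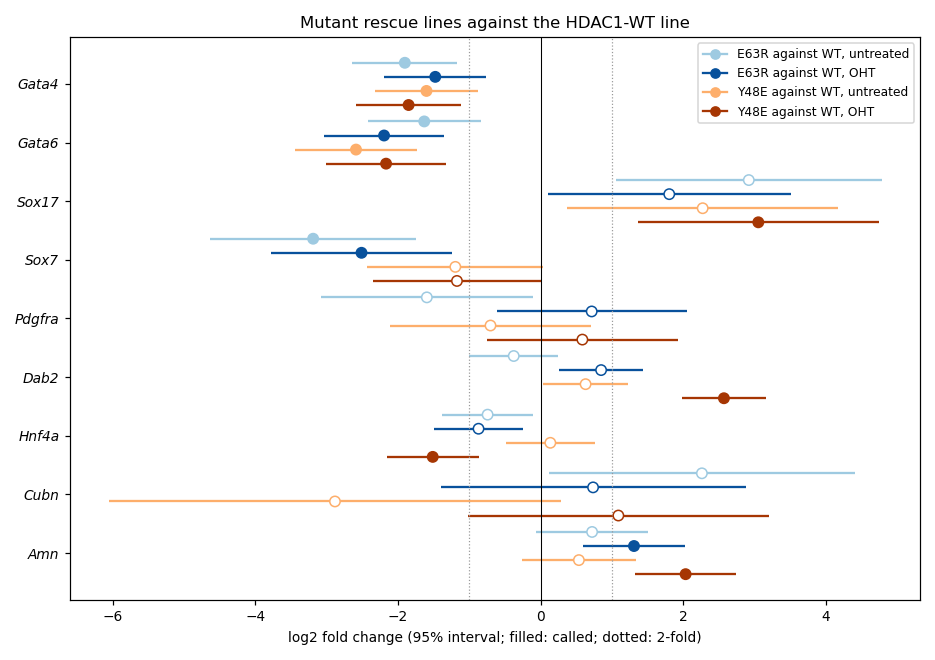
Log2 difference of each mutant line from the WT line (horizontal axis, with 95% interval) for the 9 tested genes, untreated (lighter) and after OHT (darker), with dotted lines at 2-fold. Filled points were called. Gata4 and Gata6 were called lower in all 4 comparisons and Sox7 in both of the E63R line, while Amn was called higher after OHT in both mutant lines and Sox17 and Dab2 in the Y48E line.

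Some FGF genes that act upstream of the primitive endoderm choice changed with OHT. The counts for this and the following lists stand beside 5.91% of all tested genes called in the E63R line and 16.6% in the Y48E line. Of 15 FGF genes tested, 4 rose and 1 fell in the E63R line, and 3 rose and 1 fell in the Y48E line, with medians of 0.25 and 0.23, and the other 10 and 11 were not called. Fgf4, the ligand, fell by 1.26 on the log2 scale in the E63R line (SE 0.09, adjusted p = 2.51e-09, edgeR) and by 3.06 in the Y48E line (0.09, adjusted p = 9.78e-16, edgeR). Its mean went from 365 CPM ± 16.7 (SD) to 43.6 ± 2.92 (n = 3) in the latter. Fgfr2, the receptor that primitive endoderm cells come to express, rose by 2.02 (0.23) and 1.59 (0.22). Some feedback genes of the pathway also rose, Dusp4 by 2.46 (0.19) and Spry4 and Dusp6 (the last 2 named after their values were seen) by 1.33 and 1.16 in the E63R line, and Spry2 by 1.77 (0.18) and Spry4 by 1.18 in the Y48E line. By adjusted p alone, 6 genes were higher and 2 lower in the E63R line, and 7 higher and 4 lower in the Y48E line. Mean Etv5 went from 174 to 101 CPM and Mapk3 from 151 to 78.6 in the Y48E line (named after their values were seen), neither called. Untreated Dusp4 already differed between lines, with means of 9.18 CPM in WT, 23.2 in E63R and 137 in Y48E cells. In the WT line none of the 15 was called.

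Genes that belong with the members in the extraembryonic endoderm gave mixed counts. Of 5 tested PDGF ligands and receptors, Pdgfc fell in the Y48E line by 1.53 (SE 0.31, adjusted p = 3.63e-04, edgeR) and none was called in the E63R line. None of 5 tested partners of the endocytic receptors was called after OHT in any line. In the difference of the Y48E and WT responses 1 of the 5 was called, higher by 1.47, where 8.62% of tested genes were called. Lrp2, which encodes megalin and works with cubilin, passed the adjusted p but not the 2-fold limit in the Y48E line (log2 fold change 0.88, SE 0.24, adjusted p = 0.00597, edgeR). Another 1 of the 5 passed the adjusted p alone with a fall. Only 1 of the 5 had a positive log2 fold change there, and their median was -0.28.

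Of the 17 visceral endoderm genes 11 were tested. In the E63R line 3 rose and none fell, with a median of 1.03, and in the Y48E line 4 rose and 1 fell, with a median of 1.29 that was 1.08 with genes at or under the floor in a group set to their bound. Amot, a regulator of Hippo signalling, rose by 2.42 (SE 0.30, adjusted p = 4.70e-06, edgeR) and 2.20 (0.29, adjusted p = 2.71e-06, edgeR). Rbp4, the retinol carrier, rose by 1.49 (0.25) and 1.29 (0.24), and Cited1, named after its values were seen, by 2.18 (0.51) and 2.37 (0.48). Dkk1, an inhibitor of WNT signalling, went from 0.0380 CPM ± 0.0657 to 6.01 ± 1.59 in the Y48E line, where no untreated library exceeded the floor. Lefty1, a Nodal inhibitor, fell by 1.81 (0.24) in the Y48E line. Of 16 parietal endoderm and basement membrane genes, 3 rose in the E63R line and 2 rose and 1 fell in the Y48E line, with medians of -0.04 and 0.52, and in the Y48E line this share was near that over all tested genes. Plat, the tissue plasminogen activator, rose by 1.70 (0.35) and 3.36 (0.37), Col4a1 and Col4a2 by 1.08 (0.15) and 1.18 (0.14) in the E63R line, and Pth1r, named after its values were seen, by 1.91 in the Y48E line, where Nid1 fell by 1.16 (0.18). By adjusted p alone 3 of the 16 were higher and 3 lower in the Y48E line. The summed level of the 16 there went from between 2050 and 2138 CPM to between 1612 and 1685 after OHT. Without untreated E63R replicate 3, E63R counts were 3 of 13 for visceral and 2 of 16 for parietal genes, all higher.

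Markers of other cell types moved in the same libraries, and their part in the values above was not tested. Summed levels of 10 ESC genes were between 3454 and 3494 CPM in untreated Y48E cells and between 1503 and 1624 after OHT. In that line 6 of the 10 fell, with Nanog by 1.29 (SE 0.10), Pou5f1 by 1.52 (0.13), Esrrb by 1.64 (0.11) and Prdm14 by 3.30 (0.20), and Dppa3 rose by 1.89 (named after its values were seen). In the E63R line none of the 10 was called. By adjusted p alone 1 was higher and 3 were lower, among them Pou5f1 (log2 fold change -0.75, adjusted p = 2.30e-04, edgeR). The list median in that line was -0.23, and -0.05 without untreated E63R replicate 3. Of 11 trophoblast genes, Gata3, Hand1, Krt8 and Krt18 rose in both lines, Eomes rose in the Y48E line and Ascl2, named after its values were seen, fell in the E63R line by 1.31. The summed level of the list in the Y48E line went from between 251 and 274 CPM to between 1347 and 1458, with Elf5 at or under the floor in all untreated libraries. Krt8 and Krt18, also expressed in extraembryonic endoderm, rose by 3.72 (0.12) and 3.43 (0.21) in the Y48E line, and Hand1 by 3.27 (0.29). Of 6 tested streak and definitive endoderm genes 1 rose in the Y48E line (Eomes, 1.06) and none in the E63R line, with Cer1 at or under the floor throughout. In the Y48E line this share was near that over all tested genes, and Eomes is the gene also counted in the trophoblast list. Of 7 tested cardiac muscle genes, Actc1 and Myh6 rose in both lines and Myh7 and Tnnt2 in the Y48E line. The 3 not called in the Y48E line had log2 fold changes below 0, among them Tbx5, at or under the floor after OHT. Of 7 tested endothelial genes, Kdr and Tek rose in both lines, Flt1 rose in the Y48E line and Pecam1 fell there by 1.30. Of 7 fibroblast genes only 3 were tested, and of these Col1a1 and Thy1 rose in both lines. Lum and Dcn were at or under the floor in all Y48E libraries. In the Y48E line the cardiac sum was at most 17.8 CPM without OHT and at most 54.0 with it, and the fibroblast sum at most 27.2 and 94.3, while the endothelial sum went from between 149 and 162 to between 111 and 119. Dcn, a defining fibroblast gene, and Emcn, an endothelial one, were at or under the floor in all 18 libraries. Without untreated E63R replicate 3 the E63R counts were 4 of 11 trophoblast, 4 of 7 cardiac, 2 of 7 endothelial and 2 of 4 fibroblast genes tested, all higher. The fall of Ascl2 in that line was thus no longer called.

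**Figure D4:**
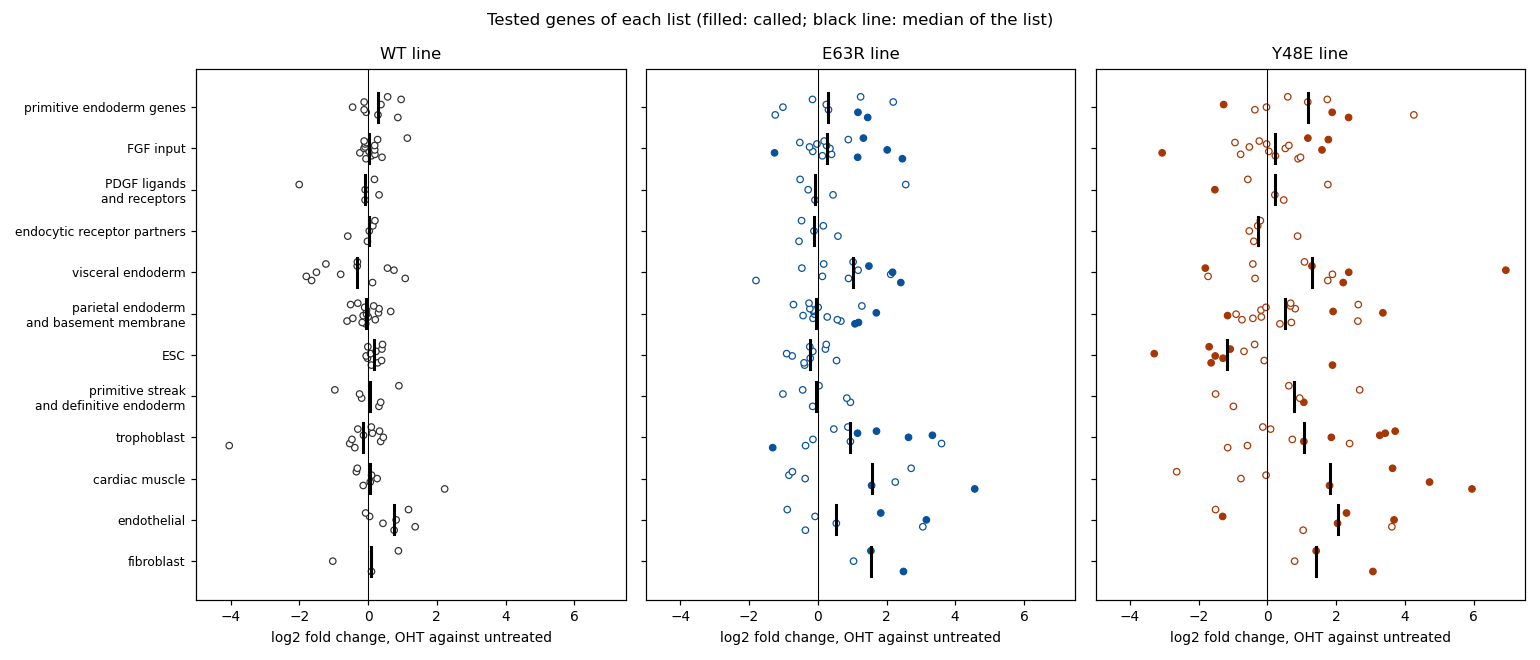
Log2 fold change after OHT (horizontal axis) of the tested genes of 12 lists (rows, the primitive endoderm genes first) in the WT, E63R and Y48E lines (panels). Filled points were called and black lines are list medians. In the WT line no gene of these lists was called, and in the Y48E line the ESC list had a median of -1.19.

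Genes with the pattern most like a member's were found by Pearson correlation of log2 CPM over the 18 libraries, which fall into 6 groups and so are not 18 separate conditions. Gata4 was most like Mdga1 (r = 0.974), Slc45a4 (0.968) and Igsf3 (0.944), and Dab2 most like Rassf4 (0.968), Atf7ip (0.960) and Dennd5b (0.953). For Amn these were Gpcpd1 (0.949), Pde6h (0.941) and Arntl2 (0.937), and for Hnf4a Arhgap19 (0.869), Sass6 (0.865) and Gm30097 (0.856). Sox17 was most like H1fx (0.955), Gata6 like Osbpl9 (0.911), Sox7 like Dpysl4 (0.915), Pdgfra like Gm42507 (0.905) and Cubn like Fndc8 (0.822). Among the members themselves the closest pairs were Gata4 with Gata6 (r = 0.770), Gata4 with Sox7 (0.724) and Dab2 with Amn (0.711). The most opposed pairs were Gata4 with Sox17 (r = -0.791) and Gata6 with Sox17 (-0.721).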

How the data were processed

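RNA-seq libraries from 18 samples in 6 groups were used, grouped by the sample titles. Per the labels and the submitters' processing notes, reads were aligned to mm10 with HISAT2 (2.1.0), handled with SAMtools (1.9) and counted per gene with HTSeq, so that the deposited values are raw counts, made by the authors for each library separately. Strand use in counting and the HTSeq version are not given in the sources used here. Entries naming no gene (5 per file) held between 59.4% and 61.2% of each file's total and were left out. No per-sample column was left unused (0).

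Counts were fitted together in edgeR (4.0.16, R 4.3.3) after its filter on low counts, with TMM scaling and the quasi-likelihood test, one mean per group. A gene was called at a Benjamini-Hochberg adjusted p under 0.01, over all 18791 genes tested, and a change over 2-fold. DESeq2 (1.42.0), RLE scaling, no filter, a replicate block, a fit of the compared libraries only, a test against a 2-fold change, other limits and leaving out each library were tried as alternatives. The test was checked on simulated data. CPM and floors (3 counts) use TMM-scaled sizes. Levels per kb use exons of GENCODE M21 (mm10), and promoters come from RefSeq (GRCm38.p6), read with Python 3.11.15.

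The members and gene lists were chosen with earlier results of these data known. All members were described, and 1 gene list is not reported here. From each other list, at most 4 genes were named, those with the smallest adjusted p among genes called after OHT in a mutant line, with groups that did not overlap and a group mean of at least 1 CPM, and others are said to be named after their values were seen. Replicate numbers were not used as pairs in the main fit, since nothing in the labels states a pairing. Of 9 same-numbered pairs within a line, 0 had a correlation of deviations over 0.1, and in 7 the best match had the same number. These values cannot exclude a pairing. The duration of OHT follows the labels.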

Additional observations from a re-analysis of the deposited data

Results flagged for a closer look

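The OHT response differed between the Y48E and WT lines for 2 of the 9 tested genes, by the test of the difference itself. Over all tested genes 8.62% were called in this comparison. For Dab2 the difference of the log2 fold changes was 1.94 (standard error 0.40, edgeR adjusted p = 0.00113). For Hnf4a it was -1.65 (standard error 0.43, edgeR adjusted p = 0.00798), a call that was lost in 9 of 12 fits that left out 1 library, with the replicate block (edgeR adjusted p = 0.0119) and when tested against a 2-fold change (edgeR adjusted p = 0.268). The Dab2 call was lost when tested against a 2-fold change (edgeR adjusted p = 0.0749) and kept in all 12 fits that left out 1 library. Each line was a single line, so the substitution and the line cannot be told apart.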

How the results depend on the processing

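No called value changed sign under any alternative run. The count of 2 genes called in the E63R line after OHT was 0 in a fit of only the libraries compared and 0 when tested against a 2-fold change, and 4 against OHT-treated WT libraries, which is another comparison. It lay between 0 and 2 when 1 library was left out. The Y48E count of 3 was 6 against OHT-treated WT libraries, and between 2 and 3 with 1 library left out. The count of 2 for the difference of the Y48E and WT responses was 0 when tested against a 2-fold change and between 1 and 2 with 1 library left out. That of the Y48E and E63R responses, 0, was 1 (Hnf4a) with no filter on low counts and 1 at an adjusted p limit of 0.05. In untreated cells the E63R count of 3 was 0 with only the libraries compared and 0 against a 2-fold change, with a range of 2 to 4 over single libraries left out, and the Y48E count of 2 was 1 against a 2-fold change, with a range of 1 to 2. After OHT the counts of 4 and 6 against the WT line ranged from 1 to 3 and from 5 to 6. For the WT response and the other differences the range was 0 to 0. These causes were not tested, apart from the fewer samples of the fits that leave libraries out. RLE scaling moved no median by more than 0.1.

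With the replicate number as a block the count for the difference of the Y48E and WT responses was 1, since Hnf4a was at -1.62 (edgeR adjusted p = 0.0119), and no other count moved by over 1.5 times. Correlations of deviations in same-numbered pairs lay between -0.0194 and 0.0441, and in 7 of 9 pairs the best match had the same number, which is a hint from the data and not the design. Foxa2, over 3 counts in 3 of 18 libraries, could not be compared at this depth.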
